A study of Mus musculus with 8 samples.

Results

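Integrins and laminins are the receptor and the ligand side of cell attachment to the basement membrane, and they were read here in the genital tubercle, from which the penis of a male or the clitoris of a female develops. The set holds every gene on the array whose symbol in the platform annotation is that of a numbered, v or e integrin α subunit, an integrin β subunit or a laminin α, β or γ chain, read only on probe sets annotated to a single gene. This gave 31 genes with 69 probe sets, of 18193 genes with 34945 such probe sets in the whole table. Among them were 21 integrin genes with 50 probe sets and 10 laminin genes with 19 probe sets.

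An integrin is a pair of an α and a β subunit that spans the cell membrane, binds matrix proteins outside the cell and couples to actin or keratin filaments inside it through adaptor proteins. A laminin is a cross-shaped trimer of an α, a β and a γ chain, and networks of laminin trimers are the base on which collagen IV, nidogen and perlecan are laid down in a basement membrane. In the tubercle such membranes lie under the surface epithelium and the urethral plate and around muscle fibres, nerves and blood vessels.

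The samples were the microdissected tubercle regions of FVB/N mouse embryos at 14 dpc (Theiler stage 22), with 4 male and 4 female samples, 1 array each. No treatment or engineered allele is named for either sex. Each sample came from RNA that was not pooled and was amplified in 2 rounds before hybridization to an Affymetrix MOE430 array. Nothing in the labels says whether embryos shared a litter or an amplification day, so the p-values cover only the spread among these 8 samples, part of which may be technical, and the number of arrays limits the precision.

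The deposited values are linear intensities with a trimmed mean of 1500 on each array. A difference is the male mean minus the female mean of log2(intensity + 16), and its standard error (SE) comes from a limma fit over 22519 probe sets. It understates the change of dim probe sets. A probe set is called where its limma adjusted p is under 0.05. The Y-linked genes Eif2s3y, Uty and Kdm5d went with the labelled sex, and their brightest probe sets read 5.89 to 88.1 on the female arrays, which hold none of their transcript. Of 8 tested marker genes of the tubercle, 1 was higher in males and 5 in females, beside 14.0% and 28.2% of all tested genes. Tbx3 was higher in males, and Hoxd13, Isl1, Shh, Pitx1 and Tbx2 were higher in females. Hoxa13 lay below the filter on dim probe sets. The summed intensity of the tubercle markers was 116040.4 to 122487 in males and 127462 to 139852 in females. Male replicates 1 and 3 stood apart from the other arrays, with median intensities of 243.9 and 249.4, against 211.7 and 212.2 on the other males and 184.4 to 206.6 on the females. They also had the highest reading of the 18S ribosomal RNA control. The 18S reading spanned 16452 to 30980 on male arrays and 8928 to 23857 on female arrays (exact permutation test of the log2 level, two-sided, p = 0.114). Every male array had a higher median log2 value than every female array, at 7.83 to 8.05 against 7.65 to 7.80. The arrays differed in this way although they shared the trimmed mean (exact permutation test, two-sided, p = 0.0286, adjusted 0.114). How far this offset enters the calls of dimmer probe sets was not tested.

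The genes of 2 β subunits are shown by their promoters, because every tested probe set of each was called and the 2 moved in opposite directions. The 250 bases before the start of Itgb1 lie at chr8:128685404-128685653 and those before Itgb5 at chr16:33829415-33829664, both on the plus strand (RefSeq, GRCm38.p6). Capitals mark GGGCGG, the GC box, on either strand, and AGAACA, a half-site of the androgen receptor, on either strand.
Itgb1: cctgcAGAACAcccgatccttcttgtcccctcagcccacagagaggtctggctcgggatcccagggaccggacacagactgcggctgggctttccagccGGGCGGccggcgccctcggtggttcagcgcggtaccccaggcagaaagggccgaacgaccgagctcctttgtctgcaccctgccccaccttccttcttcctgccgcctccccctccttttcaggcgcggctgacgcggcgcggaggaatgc
Itgb5: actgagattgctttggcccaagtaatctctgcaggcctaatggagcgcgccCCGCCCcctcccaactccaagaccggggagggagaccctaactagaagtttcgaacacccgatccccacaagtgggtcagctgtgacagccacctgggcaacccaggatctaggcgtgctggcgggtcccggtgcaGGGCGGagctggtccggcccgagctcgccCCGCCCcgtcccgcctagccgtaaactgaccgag
The Itgb1 window held 1 GC box and 1 AGAACA, and the Itgb5 window held 3 GC boxes and 0 AGAACA. Neither window held TATAAA or CCAAT on either strand. Promoters were at hand for 20 of the 31 genes, 23 windows in all. Not all of these windows lay wholly upstream of the gene span. Those of Itga9, Itga3 and Lamb3, among others, lay inside the span or overlapped it. A GC box stood in 8 of the 23, against 32.7% of all 32851 promoters, AGAACA in 4 (16.1% of all), CCAAT in 3 (33.8% of all) and TATAAA in 0 (12.4% of all). These are matches of letters in a window, and they say nothing about the binding of a factor.

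Both families held genes of both directions. The filter kept probe sets whose mean log2 value over the 8 arrays reached 7.77, an intensity of about 203, and 37 member probe sets of 22 genes passed it. Of these, 10 probe sets were higher in males, where the background over all tested probe sets was 18.7%, and 12 were higher in females, where it was 21.9%. The other 15 were not called. Counted as genes, each on its brightest tested probe set, 6 of 22 were higher in males and 7 were higher in females, beside 14.0% and 28.2% of all 11489 tested genes. The median difference of the 25 integrin probe sets was 0.35 and that of the 12 laminin probe sets was -0.38, beside -0.01 over all tested probe sets. By gene the median was 0.22 for 14 integrin genes and -0.38 for 8 laminin genes, beside -0.12 over all tested genes. Male and female values were fully separate on 17 of the 37 member probe sets (45.9%), beside 37.1% of all tested probe sets. Counted as genes they were separate for 9 of 22 (40.9%), beside 39.6% of all tested genes. Without male replicates 1 and 3 the counts were 8 probe sets and 4 genes higher in males, and 12 probe sets and 8 genes higher in females, and 19 of the 22 member calls remained. The calls lost were those of Itgb8 and of 1 probe set each of Itga6 and Lamc1. The 8 genes include Lamc1, whose brightest probe set is another one without these arrays and is higher in females. Leaving out single arrays gave 5 to 8 probe sets higher in males, with 6 without male replicate 1, 5 without female replicate 1 and 6 without female replicate 3, and 11 or 12 higher in females. It gave 2 to 5 genes higher in males and 6 or 7 higher in females. The other 32 member probe sets lay below the filter and are described by their values alone, 15 of them in 9 genes with no tested probe set and 17 in 10 genes with a tested one. The plot of all tested member probe sets shows that the integrin α subunits lay mostly to the right of zero and the laminin α chains mostly to the left of it.

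**Figure D1:**
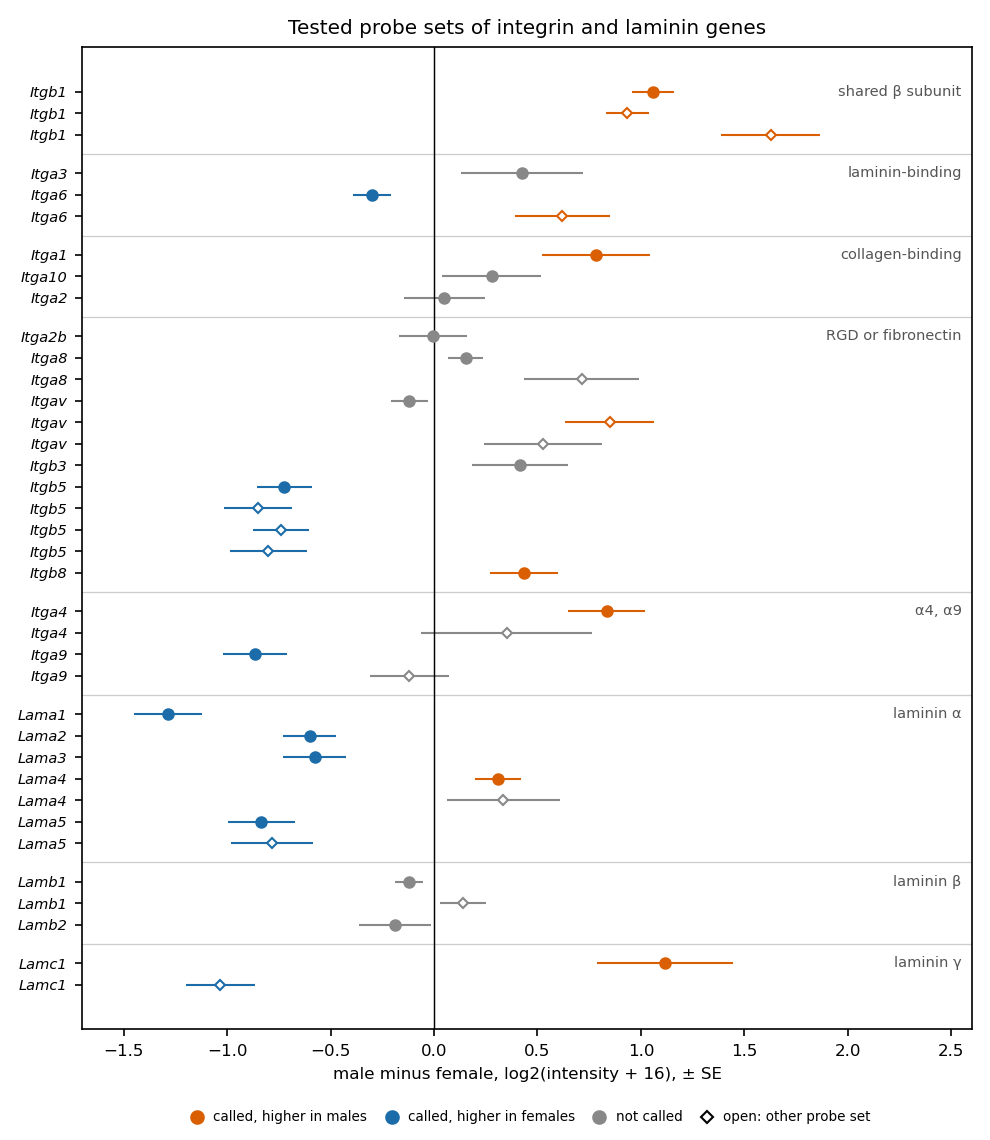
The x axis is the difference between male and female arrays in log2(intensity + 16), with bars of ± 1 SE, for the 37 tested probe sets in rows grouped by role. Filled circles are the brightest tested probe set of a gene and open diamonds its other tested probe sets. The 3 Itgb1 probe sets lie between 0.93 and 1.63, and the 4 Itgb5 probe sets between -0.85 and -0.72.

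Itgb1, the β subunit shared by the laminin and collagen receptors and by several fibronectin receptors, was higher in males on each of its 3 tested probe sets. Its brightest probe set, 1452545_a_at, read 7968, 9088, 8857 and 8709.6 on male replicates 1 to 4, against 3675, 4749.8, 4341 and 3876 on female replicates 1 to 4. Each male array lay well above each female array. The difference was 1.06 ± 0.10 (SE, limma adjusted p = 5.35e-05), a ratio of 2.08. A second probe set, 1426918_at, read 7084, 7647, 7039.6 and 6879.9 in males, against 3206, 3995, 3683 and 4139 in females (0.93 ± 0.10, limma adjusted p = 8.66e-05). The dimmest tested one, 1427771_x_at, read 1603, 1124, 2179 and 1158 in males, against 342, 608, 413 and 529 in females (1.63 ± 0.24, limma adjusted p = 0.000391). Its suffix marks probes that may bind related transcripts, and male replicates 1 and 3 were its highest arrays. Without those 2 arrays it differed by 1.28 (limma adjusted p = 0.00288), and leaving out any single array ended none of the 3 calls. Below the filter, 1426920_x_at read 181 to 227 in males and 68.8 to 128 in females without overlap, and the ranges of 1426919_at and 1438119_at overlapped. In whole tissue, fewer cells of a type and less RNA per cell cannot be told apart, here or for any other gene.

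Among the laminin-binding α subunits, Itga6 had calls in both directions and Itga3 had none. Itga6, which pairs with Itgb1 in most cells and with Itgb4 in the hemidesmosomes of epithelia, read 15968, 15299, 17349 and 16271 on the male arrays, against 21402, 22452, 19936 and 16617 on the female arrays, on its brightest probe set, 1422445_at. Only female replicate 4 fell into the male range. The difference was -0.30 ± 0.09 (limma adjusted p = 0.0204), and the call ended without male replicate 2, female replicate 1 or female replicate 2 (highest limma adjusted p = 0.0669). The other Itga6 probe set, 1422444_at, was called in the opposite direction. It read 4619, 2397, 4340.2 and 2553 in males, against 1544, 2386, 2499.9 and 2362 in females, a difference of 0.62 ± 0.23 (limma adjusted p = 0.0466). Male replicates 1 and 3 were far above the rest, and male replicates 2 and 4 lay beside the females. Without replicates 1 and 3 of the males the difference was 0.19 (limma adjusted p = 0.465), and leaving out any 1 of 6 arrays, all but male replicates 2 and 4, ended the call (highest limma adjusted p = 0.135).

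Itga3, a laminin receptor of epithelial cells, read 724, 645, 922 and 787 in males, against 366, 538, 439 and 1163 in females, on 1455158_at (0.42 ± 0.30, limma adjusted p = 0.271). Female replicate 4 was above every male array while the other 3 females were below every male array. Without it the difference was 0.77 and was called (limma adjusted p = 0.0126). Itga7, the laminin receptor of muscle, read 3.87 to 19.4 in males and 5.05 to 38.7 in females on its 1 probe set and lay below the filter. Itgb4, the partner of Itga6 in hemidesmosomes, also lay below the filter, with 113, 33.2, 23.0 and 28.8 in males and 41.9, 123, 129 and 126 in females. For Itgb4, 3 males were below every female, and male replicate 1 was within the female range.

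Among the collagen receptors, Itga1, found on mesenchymal and smooth muscle cells, was higher in males. Its probe set 1455251_at read 577, 712, 401 and 591 on male arrays, against 344, 429, 187 and 368 on female arrays. Male replicate 3 lay below female replicate 2, so the ranges overlapped. The difference was 0.78 ± 0.26 (limma adjusted p = 0.0313), and it missed the threshold without any 1 of male replicates 1, 2 and 4 and female replicates 1 and 3 (highest limma adjusted p = 0.0874). It also missed the threshold under quantile normalization (0.65, limma adjusted p = 0.0717) and with no filter on dim probe sets (limma adjusted p = 0.0705). Itga10, a collagen receptor of cartilage, read 251 to 456 in males and 243 to 383 in females (0.28 ± 0.24, limma adjusted p = 0.378). Itga2, a collagen receptor of platelets and epithelia, read 200.3 to 227 in males and 185 to 227 in females, just above the filter, and differed by 0.05 ± 0.20 (limma adjusted p = 0.86).

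Itgb5, which pairs with Itgav to bind vitronectin, was higher in females on each of its 4 probe sets, all of them tested. The brightest, 1456133_x_at, read 4041, 3052, 2809 and 2779.6 in males, against 5709.7, 5122, 4630.4 and 5323 in females. The highest male array, replicate 1, stayed below the lowest female array. The difference was -0.72 ± 0.13 (limma adjusted p = 0.00137), with females at 1.65 times the male level. The second, 1417533_a_at, read 2826, 1754, 1685 and 1704 in males, against 3803, 3405, 3384 and 3484 in females (-0.85 ± 0.16, limma adjusted p = 0.00175). The others, 1456195_x_at and 1417534_at, differed by -0.74 ± 0.14 and -0.80 ± 0.19 (limma adjusted p = 0.00141 and 0.00533). The suffix of 1456133_x_at and 1456195_x_at marks probes that may bind related transcripts, and 1417533_a_at and 1417534_at do not carry it. Male replicate 1 was the highest male on all 4, no range overlapped, and leaving out any single array ended none of these calls.

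The α partner of Itgb5 was not called on its brightest probe set and was higher in males on a dimmer one. Itgav, the α subunit shared by the receptors for the RGD motif of vitronectin, fibronectin and latent TGF-β, read 27445 to 31969.8 in males and 28364 to 36517 in females on its brightest probe set, 1452784_at (-0.12 ± 0.09, limma adjusted p = 0.303). A dimmer probe set, 1421198_at, read 1325, 1453, 1284 and 1239 in males, against 443, 940.1, 881 and 759.95 in females, and was called (0.85 ± 0.21, limma adjusted p = 0.00797). Every male was above every female on it, female replicate 1 was its lowest array, and the call held when any single array was left out. The remaining tested Itgav probe set, 1432678_at, differed by 0.53 ± 0.29 (limma adjusted p = 0.159), and 2 more lay below the filter with overlapping ranges.

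Of the other β partners of Itgav, Itgb8 was called, Itgb3 was not and Itgb6 was too dim to be tested. Itgb8, which with Itgav releases active TGF-β from its latent form, read 863, 842, 721 and 843 in males, against 672, 684, 565 and 492 in females. The ranges did not overlap, with male replicate 3 the lowest male. The difference of 0.44 ± 0.16 was called at the edge of the threshold (limma adjusted p = 0.0497) and missed it without any 1 of the 7 arrays other than male replicate 3 (highest limma adjusted p = 0.121), and without male replicates 1 and 3 together (0.48, limma adjusted p = 0.0748). Itgb3, the β subunit of the platelet fibrinogen receptor and of another vitronectin receptor, read 206, 267, 239 and 246 in males and 190.2, 173, 122 and 231 in females (0.42 ± 0.23, limma adjusted p = 0.169). Itgb6, an epithelial partner of Itgav, lay below the filter with 55.3 to 152 in males and 71.7 to 119 in females on the brighter of its 2 probe sets.

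Itga8, a receptor of mesenchyme that with Itgb1 binds nephronectin, read 8505, 8206, 7608 and 7701 in males and 6626, 7233, 7639 and 7307 in females on its brighter probe set, 1454966_at. Female replicate 3 lay just above the lowest male. The difference was 0.15 ± 0.08 (limma adjusted p = 0.168), and that of the dimmer 1427489_at was 0.71 ± 0.28 (limma adjusted p = 0.0565), with 3 females below every male and female replicate 2 within the male range. Without female replicate 2 the dimmer probe set was called, with a difference of 1.04. Itga2b, the platelet partner of Itgb3, read 407 to 475 in males and 385 to 464 in females (-0.01 ± 0.17, limma adjusted p = 0.982). Itga5, the main fibronectin receptor subunit, lay below the filter on its 4 probe sets, the brightest of which read 130.3 to 176 in males and 102 to 174 in females.

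Itga4 and Itga9, closely related α subunits that share Itgb1 as partner, moved in opposite directions. Itga4, a receptor for fibronectin and Vcam1, read 1081, 1159, 1422 and 1856 in males, against 677, 912, 735 and 696 in females, on 1421194_at. All males lay above all females. The difference was 0.83 ± 0.19 (limma adjusted p = 0.00436), a ratio of 1.78. Its dimmer tested probe set, 1436037_at, read 138, 401, 211 and 604 in males, against 198, 164, 186 and 426 in females, with replicate 4 the highest array within each sex, and differed by 0.35 ± 0.41 (limma adjusted p = 0.523). Without male replicates 1 and 3 that probe set was called (1.07, limma adjusted p = 0.0433).

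Itga9, a receptor for tenascin C and other matrix ligands, read 1881, 1782, 1499 and 1505 in males, against 2499, 2703, 3222 and 3877 in females, on 1460285_at. The lowest female array was above the highest male array. The difference was -0.86 ± 0.15 (limma adjusted p = 0.00117), with females at 1.82 times the male level. Its other tested probe set, 1450029_s_at, had overlapping ranges and differed by -0.12 ± 0.19 (limma adjusted p = 0.642). Leaving out any single array ended neither the Itga4 call of 1421194_at nor the Itga9 call of 1460285_at. The member subunits typical of leukocytes, Itgb2, Itgae and Itgb7, were below the filter. Itgb2, shared by the leukocyte integrins, read 98.3 to 184 in males and 41.9 to 157 in females, Itgae, a receptor for E-cadherin, 139 to 344 and 164 to 234 on its brighter probe set, and Itgb7, the partner of Itgae and Itga4, 59.7 to 185 and 55.2 to 255. The plot of the called integrin subunits shows the Itgb1 and Itgb5 arrays as separate clouds on every probe set, and the overlap of the sexes for Itga1 and Itga6.

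**Figure D2:**
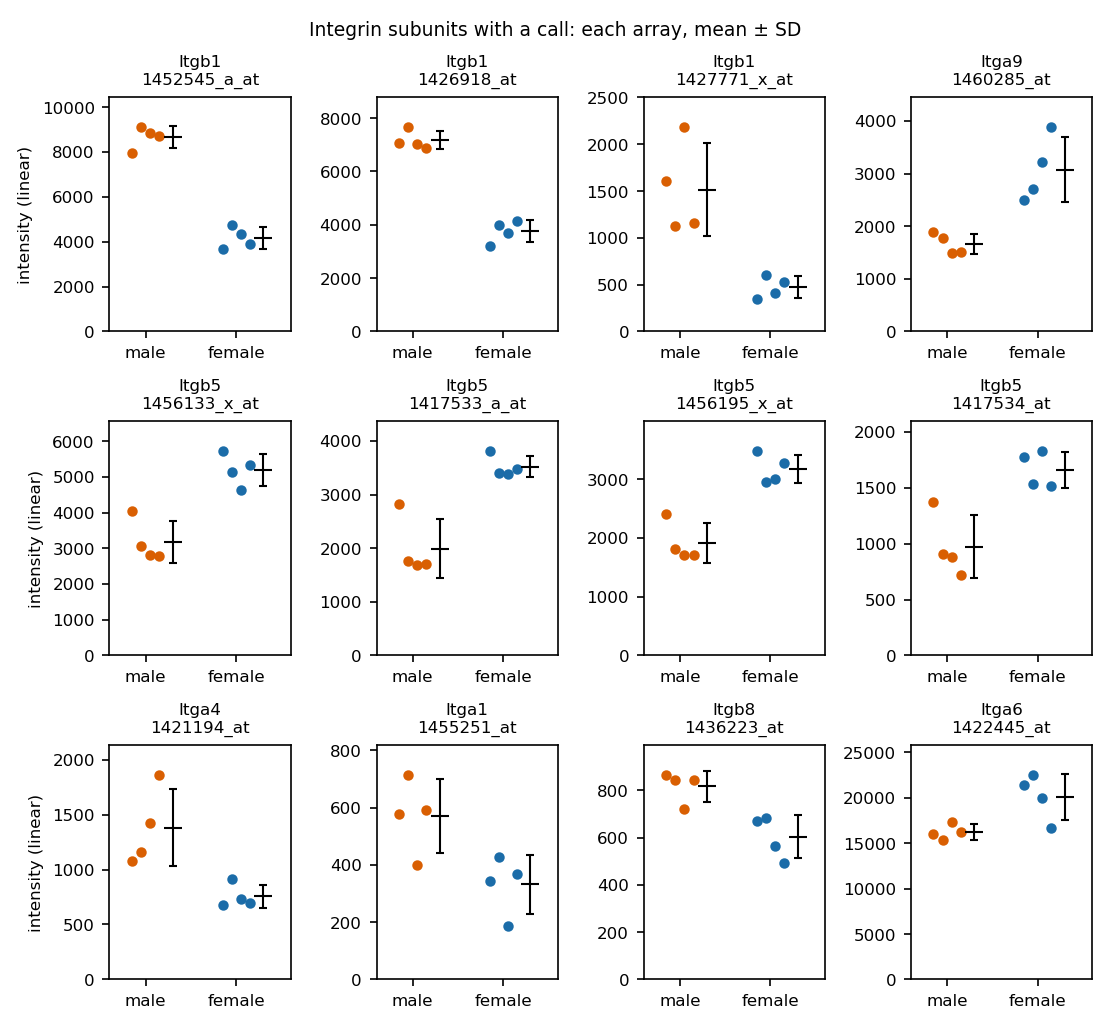
Each panel gives the linear intensity (y axis, from 0) of 1 probe set on the 4 male arrays (orange, left) and the 4 female arrays (blue, right), with the mean ± SD beside each group. All 3 tested Itgb1 probe sets are higher in males without overlap and all 4 Itgb5 probe sets are higher in females without overlap, while the panels of Itga1 and Itga6 overlap.

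The laminin α chains, which carry the receptor-binding end of the trimer, were higher in females with 1 exception. Each of the 5 genes was called on its brightest probe set, 1 higher in males and 4 higher in females, beside 14.0% and 28.2% of all tested genes. Lama1, the α chain of early embryonic and epithelial basement membranes, had the largest of these differences. It read 1111, 676, 788 and 734 in males, against 1873, 1945, 2097 and 2099 in females, on its single probe set. Male replicate 1 was the highest male and still far below every female. The difference was -1.28 ± 0.16 (limma adjusted p = 0.000178), with females at 2.44 times the male level.

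Lama2, the α chain of the membranes around muscle fibres and Schwann cells, read 1815, 2358, 1747 and 2118 in males, against 2938, 3155, 2816 and 3249.6 in females. The ranges were separate, and the difference was -0.60 ± 0.13 (limma adjusted p = 0.00317). Lama3, a chain of the epithelial laminin that anchors skin, read 1025, 915, 905 and 962 in males, against 1640.3, 1608, 1398 and 1120.1 in females. All males were below female replicate 4, the lowest female, and the difference was -0.58 ± 0.15 (limma adjusted p = 0.0105). A second Lama3 probe set lay below the filter with overlapping ranges. Lama5, the widely used α chain of later epithelial membranes, read 436, 559, 523 and 543 in males, against 915, 952, 1079 and 787 in females, on 1427010_s_at. No male reached the female range. The difference was -0.84 ± 0.16 (limma adjusted p = 0.00194), and the second probe set, 1427009_at, gave -0.78 ± 0.20 (limma adjusted p = 0.00809), also without overlap. Leaving out any single array ended none of the calls of Lama1, Lama2, Lama3 and Lama5.

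Lama4, the α chain of blood vessel and nerve membranes, went the other way. Its brighter probe set, 1424807_at, read 7407, 6950.1, 5396 and 7064 in males, against 5075, 5687, 5200.3 and 5551 in females. Male replicate 3 fell within the female range and the other 3 males lay above it. The difference was 0.31 ± 0.11 (limma adjusted p = 0.0418), and it missed the threshold without any 1 of the 7 arrays other than male replicate 3 (highest limma adjusted p = 0.101). The dimmer 1424808_at read 6689, 3059, 4345 and 2353 in males, against 2225, 2859, 3372 and 3840.3 in females, and was not called (0.34 ± 0.27, limma adjusted p = 0.346). Male replicates 1 and 3 were its highest arrays, and without them the difference was -0.17 (limma adjusted p = 0.567).

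**Figure D3:**
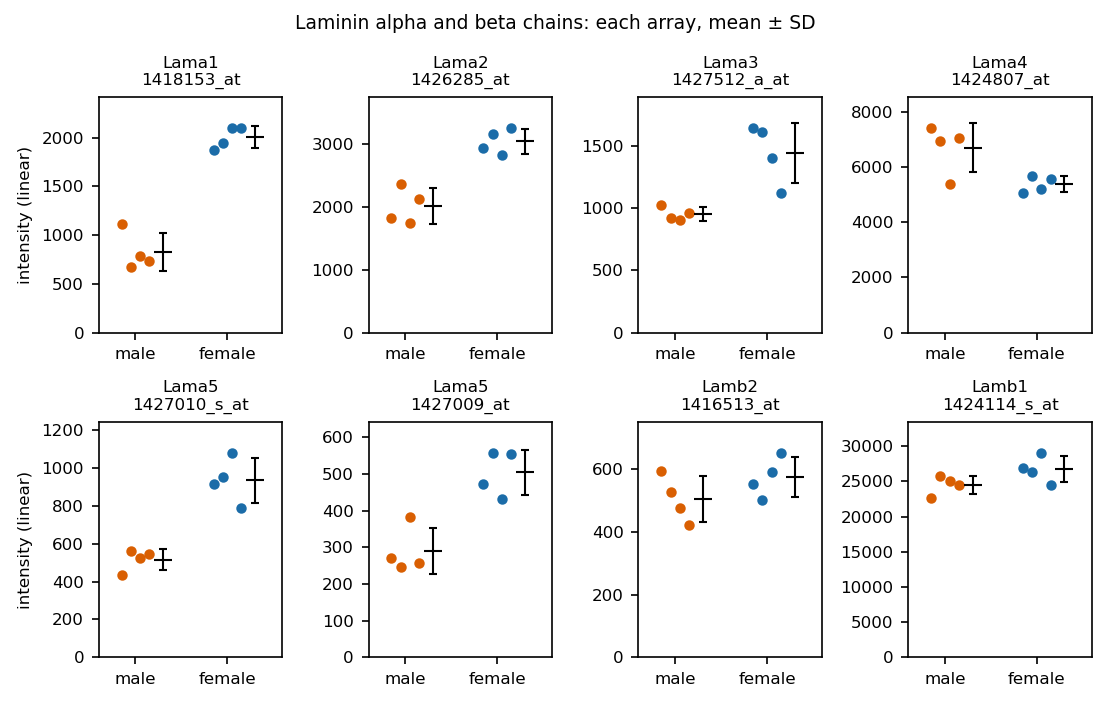
Each panel gives the linear intensity (y axis, from 0) of 1 probe set of a laminin α or β chain on the 4 male arrays (orange, left) and the 4 female arrays (blue, right), with the mean ± SD. Lama1, Lama2, Lama3 and both Lama5 probe sets are higher in females without overlap, Lama4 is higher on 3 of 4 male arrays, and the Lamb1 and Lamb2 ranges overlap.

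The laminin β chains were not called. Lamb1, the β chain of most embryonic laminins, read 22681, 25771, 25036 and 24531 in males and 26872, 26323, 29047 and 24546 in females on its brightest probe set, 1424114_s_at (-0.12 ± 0.07, limma adjusted p = 0.169). The next, 1424113_at, differed by 0.14 ± 0.11 (limma adjusted p = 0.331). Another Lamb1 probe set, 1451241_at, lay below the filter with 468, 299, 428 and 298 in males and 133, 51.1, 25.6 and 39.0 in females. All its male values were above all its female values. When no filter was applied it was called (2.46, limma adjusted p = 0.00205). Lamb2, the β chain of neuromuscular junctions and kidney filters, read 593, 525, 476 and 419.9 in males and 552, 501, 589.95 and 650.5 in females (-0.19 ± 0.17, limma adjusted p = 0.41). Lamb3, the β chain that joins Lama3 in skin, read 85.5 to 174 in males and 135 to 241 in females and lay below the filter.

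Lamc1, the γ chain of most laminins, gave opposite calls on its 2 tested probe sets. The probe set with the slightly higher mean, 1423886_at, read 1895, 785, 1637 and 653 in males, against 342, 568, 495 and 701 in females. Male replicates 1 and 3 were far above the females, male replicate 2 just above them and male replicate 4 within their range. Its difference of 1.12 ± 0.33 was called (limma adjusted p = 0.0178), the call ended without male replicate 3 or female replicate 1 (highest limma adjusted p = 0.0594), and without male replicates 1 and 3 the difference was 0.48 (limma adjusted p = 0.192). The other, 1423885_at, read 338, 413, 423 and 459.6 in males, against 737, 830.4, 942 and 895 in females. Here each female was above each male, and male replicates 1 and 3 did not stand apart. The difference was -1.03 ± 0.17 (limma adjusted p = 0.000645), and it was -0.93 without male replicates 1 and 3 (limma adjusted p = 0.00333). Lamc3, a γ chain of peripheral nerve and other tissues, read 198 to 258 in males and 116 to 226 in females on the brighter of 2 probe sets, both below the filter.

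Probe sets of 1 gene thus differed from each other in Itga6 and Lamc1, where calls ran both ways. The log2 distance between the 2 Lamc1 probe sets, 1423886_at minus 1423885_at, averaged 1.43 ± 0.89 in males and -0.71 ± 0.33 in females (SD, n = 4 each), and that between the Itga6 probe sets, 1422444_at minus 1422445_at, averaged -2.28 ± 0.46 in males and -3.20 ± 0.42 in females. These pairs were chosen for their opposite calls, so the shifts are a description. In the whole table, calls ran in both directions for 371 of the 1512 genes that had 2 or more called probe sets (24.5%). The plot of these genes by array shows male replicates 1 and 3 above the other males on 1 probe set each of Lamc1, Itga6 and Lama4. On the same 2 arrays the log2 distance between the 3′ and the 5′ control probe sets of Actb was 2.40 and 2.48, against 2.69 to 3.16 on the other 6 arrays, and that of Gapdh was 3.65 and 3.63, against 3.83 to 4.38. The part of RNA quality in the disagreement was not tested.

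**Figure D4:**
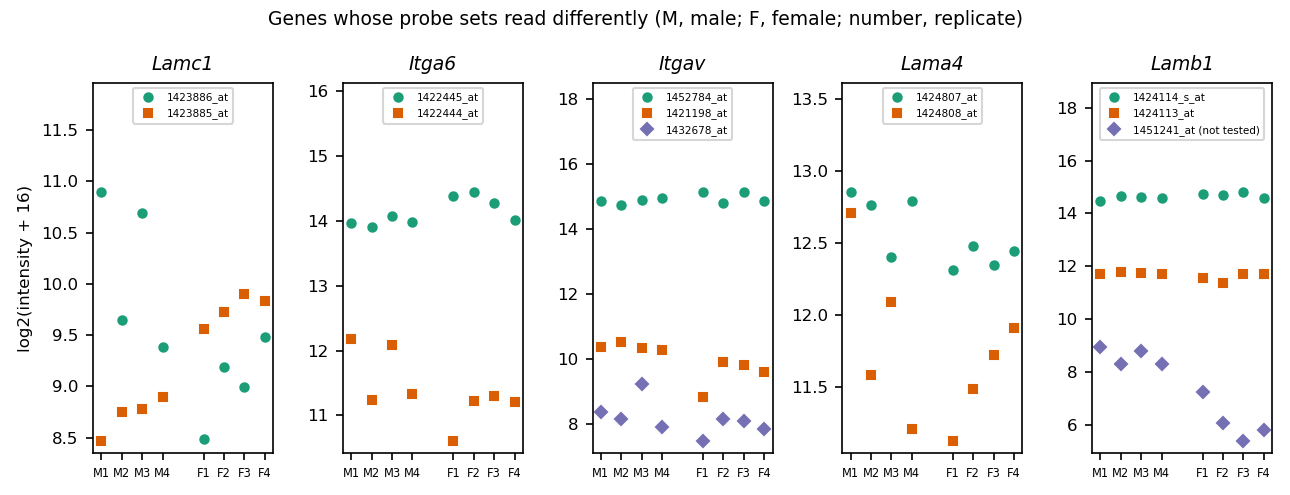
The y axis is log2(intensity + 16) and the x axis lists male (M) and female (F) arrays by replicate number, with 1 symbol for each probe set of Lamc1, Itga6, Itgav, Lama4 and Lamb1. Male replicates 1 and 3 are high on 1423886_at of Lamc1, 1422444_at of Itga6 and 1424808_at of Lama4, and the sexes separate fully on 1423885_at of Lamc1 and 1421198_at of Itgav.

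Subunits that form 1 receptor, or chains that replace each other, were compared within each array, which removes any scaling of the array. Of 10 such pairs 7 had tested probe sets for both genes. The log2 level of Itga6 relative to its partner Itgb1 averaged 0.91 ± 0.11 in males and 2.27 ± 0.19 in females (SD, n = 4 each), a shift of -1.36. That of Itga8 relative to Itgb1 averaged -0.11 ± 0.14 in males and 0.79 ± 0.13 in females, a shift of -0.91. For Lama4 relative to Lama5 it was 3.66 ± 0.29 in males and 2.51 ± 0.23 in females, a shift of 1.14. In these 3 pairs the sexes did not overlap, and the exact permutation test (two-sided) gave p = 0.0286 for each, the smallest that 4 against 4 arrays can give, and 0.0667 after adjustment over the 7 pairs. Itgav relative to Itgb5 shifted by 0.60 and Itgav relative to Itgb8 by -0.56 (exact permutation p = 0.0571, adjusted 0.08 for both). Lama3 relative to Lama5 shifted by 0.26 (exact permutation p = 0.2, adjusted 0.233) and Lamb1 relative to Lamb2 by 0.06 (exact permutation p = 0.571). No pair passed after adjustment. The level of a pair depends on its probes, so only the shift between the sexes was read. The shift depends on the probe set as well. Itga6 differed by -0.30 on the probe set used here and by 0.62 on 1422444_at. Itgav differed by -0.12 on the probe set used here and by 0.85 on 1421198_at. Such a shift measures unequal change of the partners on the probe sets used, not which of them changed.

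The other genes of the pathway were read on lists that leave out the members, each gene on its brightest tested probe set. Of 24 tested basement membrane partners, 4 passed as higher in males and 11 as higher in females, beside 14.0% and 28.2% of all tested genes. Their median difference was -0.27, beside -0.12 over all tested genes. Col4a5, a collagen IV chain of specialised membranes, averaged 3624 ± 548 in males and 1583 ± 263 in females (SD, n = 4 each), a difference of 1.19 ± 0.15 (limma adjusted p = 0.000194). Col4a2, a chain of the common collagen IV, averaged 5189 ± 782 in males and 10174 ± 812 in females (-0.98 ± 0.12, limma adjusted p = 0.000132). Fbln1, the matrix protein fibulin, differed by -1.04 ± 0.10 and Ntn4, a netrin that binds laminin γ chains, by -0.86 ± 0.23 (limma adjusted p = 5.86e-05 and 0.0109). The other 3 genes higher in males were Egfl6, Fras1 and Smoc2. Nid1, which links laminin to collagen IV, differed by -0.18 ± 0.08 and was not called (limma adjusted p = 0.104), nor was Hspg2, the gene of perlecan (0.25 ± 0.20, limma adjusted p = 0.345). With the 18S reading as a covariate the list held 2 genes higher in males and 7 in females.

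The list of integrin adhesion adaptors also held signalling genes such as Src, Fyn and Rap1b. Of its 33 tested genes, 2 passed as higher in males and 12 as higher in females, beside 14.0% and 28.2% of all tested genes. Their median was -0.20, beside -0.12 over all tested genes. Flna, the actin crosslinker filamin A, averaged 4828 ± 577 in males and 10253 ± 250.2 in females, a difference of -1.09 ± 0.10 (limma adjusted p = 3.70e-05). Pxn, the focal adhesion protein paxillin, differed by -0.81 ± 0.11 (limma adjusted p = 0.000217). Parva and Ilk, which bind each other at adhesions, differed by -0.75 ± 0.11 and -0.65 ± 0.14 (limma adjusted p = 0.000355 and 0.00384). The 2 higher in males were Crk (0.33 ± 0.06), an adaptor of adhesion signalling, and Rap1a (0.35 ± 0.11), a small GTPase that activates integrins, with limma adjusted p values of 0.00144 and 0.0194. Without any 1 of male replicates 2, 3 and 4 and female replicate 3 only 1 gene was higher in males, and without female replicate 4 there were 4. The talin genes Tln1 and Tln2, which bind the β subunit tail, were not called (-0.15 ± 0.18 and -0.24 ± 0.17, limma adjusted p = 0.54 and 0.286), nor was the kindlin gene Fermt2 (0.06 ± 0.07, limma adjusted p = 0.496).

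Of 21 tested integrin ligands other than laminins, 7 passed as higher in males and 4 as higher in females, beside 14.0% and 28.2% of all tested genes. Their median was -0.07, beside -0.12 over all tested genes. Edil3, an RGD protein that binds integrins with the αv subunit, averaged 3320.2 ± 951 in males and 1739.7 ± 455 in females (0.92 ± 0.22, limma adjusted p = 0.00644). Tnc, the tenascin C gene, averaged 3814 ± 255 in males and 6572 ± 323 in females (-0.78 ± 0.09, limma adjusted p = 0.000131). It was higher in females, as was Itga9, one of its receptors. Thbs1, a thrombospondin, differed by 0.64 ± 0.23 and Icam2, a ligand of leukocyte integrins, by -0.75 ± 0.15 (limma adjusted p = 0.0388 and 0.00218). Of the ligands of Itga4, Vcam1 was higher in males (0.31 ± 0.09, limma adjusted p = 0.0213) and Fn1, the fibronectin gene, was higher in females (-0.28 ± 0.07, limma adjusted p = 0.00965). Npnt, the Itga8 ligand nephronectin, was not called (-0.12 ± 0.09, limma adjusted p = 0.276). Without female replicate 1 the count higher in males was 4, without male replicate 1 the count higher in females was 7, and without male replicates 1 and 3 it was 2. With the 18S reading as a covariate the list held 3 genes higher in males and 2 in females.

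Of 8 tested hemidesmosome and tetraspanin genes, 0 passed as higher in males and 3 as higher in females, beside 14.0% and 28.2% of all tested genes. These 3 were Plec, the keratin linker plectin (-0.64 ± 0.15), Dst, another such linker (-0.61 ± 0.13), and Cd81, a tetraspanin that associates with integrins (-0.25 ± 0.07). Their limma adjusted p values were 0.00499, 0.00335 and 0.0143. With the 18S reading as a covariate 1 of them was called. Integrin and netrin genes outside the naming pattern were mostly dim. Of 3 tested, 0 passed as higher in males and 1 as higher in females. That 1 was the netrin Ntn4, which is also counted among the basement membrane partners. The leukocyte integrin gene Itgal was tested and not called (0.32 ± 0.23, limma adjusted p = 0.298), and Ntn1, a netrin, was not called either (-0.37 ± 0.16, limma adjusted p = 0.0843). The plot of these lists shows the members spread to both sides of the median of all genes, and the partner and adaptor lists mainly to its left.

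**Figure D5:**
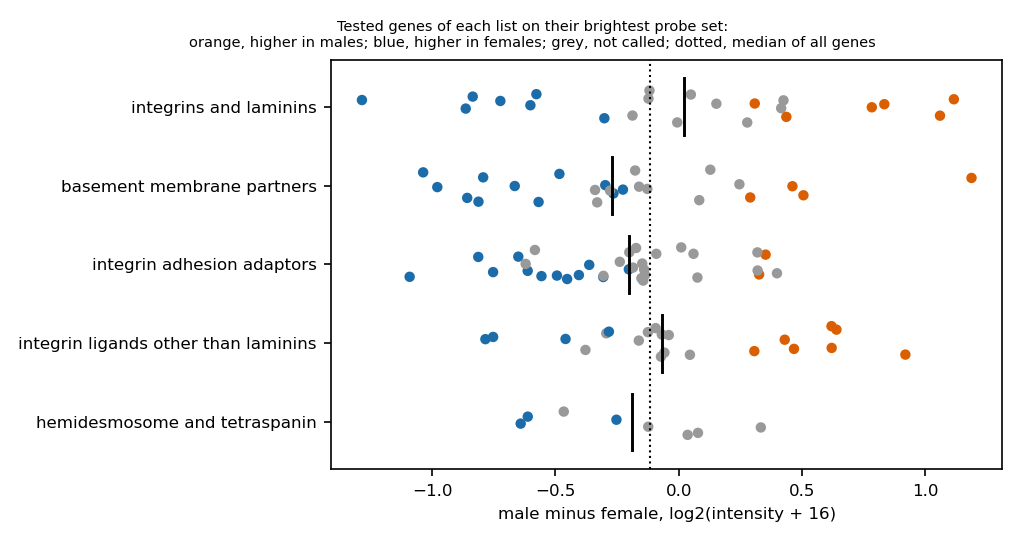
The x axis is the difference between male and female arrays in log2(intensity + 16), and each point is a tested gene on its brightest probe set, in rows by list. Vertical bars are the medians of the lists (0.02 for integrins and laminins, -0.27, -0.20, -0.07 and -0.19 for the lists below them), and the dotted line is the median of all tested genes, -0.12.

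Markers of cell types were counted as well, and the measurements stand here beside the members those cells use. Each count is to be read beside the background of all tested genes, 14.0% for the male direction and 28.2% for the female direction. The lists held only 3 to 11 tested genes, and no list was tested against that background. Skeletal muscle genes were higher in males for 7 of 9 tested and in females for 0, with a summed intensity of 20111 to 31001 in males and 7136 to 17175 in females. Lama2, a chain of muscle membranes, was higher in females, and Itga7, the muscle laminin receptor, was below the filter. Blood endothelium markers were higher in males for 3 of 7 and in females for 1, with sums of 11499 to 13879 in males and 9947 to 11545 in females, beside Lama4, a vessel chain. Leukocyte and macrophage markers were higher in males for 2 of 8 and in females for 1, with sums of 7427 to 8423 in males and 5424 to 6393 in females, beside Itga4. The 2 higher in males, Csf1r and Mrc1, were the brightest genes of that list and weigh most in its sum. Cd68 was higher in females, and 5 were not called. Peripheral neuron markers were higher in males for 4 of 5 and cartilage markers for 2 of 3, with 0 higher in females in either list. Smooth muscle markers, beside Itga1, were higher in males for 1 of 4 and in females for 1. Schwann cell markers, beside Lama2 and Lama4, were higher in males for 1 of 4 and in females for 0, and erythroid markers were higher in males for 1 of 5 and in females for 2. Of the markers of surface epithelium and urethral plate, 1 of 11, Trp63, was higher in males (0.48 ± 0.08, limma adjusted p = 0.00109). The 5 higher in females were Krt5, Krt14, Krt8, Krt18 and Cldn6. Epcam, Cdh1, Perp, Krt15 and Krt19 were not called. The sums overlapped, at 67271 to 72815 in males and 65063 to 75816 in females. Lama1, Lama3 and Lama5 stand beside that list. Platelet markers, beside Itga2b and Itgb3, were higher in males for 0 of 3 and in females for 1. The part of these cell types in the members' differences was not tested.

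With the 18S reading as a covariate, which took the share of all tested probe sets that were called to 21.0% from 40.5%, 15 of the 22 member calls remained. The calls of Itgb1, Itgb5, Itga4, Itga9, Lama1, Lama2 and Lama5 were among them, and Lama3 moved just past the threshold (-0.60, limma adjusted p = 0.0592). Itga1 differed by 0.70 with the covariate, against 0.78 without it, and was no longer called (limma adjusted p = 0.169). Itgb8 differed by 0.43, against 0.44 (limma adjusted p = 0.188), and Lama4 by 0.32, against 0.31 (limma adjusted p = 0.150), so their differences were of about the same size while the calls were lost. The Lamc1 probe set 1423886_at differed by 0.50 with the covariate, against 1.12 without it (limma adjusted p = 0.310). The calls of 1422444_at of Itga6 and 1421198_at of Itgav were lost as well.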

How the data were processed

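Total RNA of 4 male and 4 female samples was measured on 1 array each. The authors deposited intensity values on a linear scale for 45101 probe sets, made with GCOS per the submitters' processing notes, whose version and settings are not given in the sources used here. Each array had a 2% trimmed mean of 1500, and no further scaling was applied. Of the probe sets, 34945 were annotated to a single gene by the platform table, and 64 controls were left out of the tests.

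Intensities were taken as log2(intensity + 16). Probe sets at or above the median of their mean log2 value (7.77) were kept, which left 22519. Males were compared with females with limma 3.58.1 in R 4.3.3 (empirical Bayes variances with an intensity trend), with Benjamini-Hochberg adjustment over all tested probe sets and a threshold of 0.05. The fit was tested on simulated data with independent noise for each probe set. Effects shared by the probe sets of an array were not simulated. A gene was read on the brightest of its tested probe sets. A single value was compared with an exact permutation test over the 8 arrays. Arrays correlated at 0.966 to 0.985 inside a sex and at 0.904 to 0.952 across sexes, and no 2 were identical.

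All member genes are named, and up to 4 called genes of each pathway list with the largest absolute difference; Egfl6, Fras1, Smoc2, Nid1, Hspg2, Crk, Rap1a, Tln1, Tln2, Fermt2, Vcam1, Fn1, Npnt, Itgal and Ntn1 were named after their values were seen. Marker lists are given as counts and sums, with single genes named as examples. The members and the lists were chosen with earlier results of these data known. Alternatives were other pseudocounts, filters, variance models and array weights, quantile normalization, a replicate block, the 18S reading as a covariate, probe set choices and leaving out arrays. Promoter letters are from RefSeq (GRCm38.p6), which may differ from the start sites used in this tissue.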

Additional observations from a re-analysis of the deposited data

Results flagged for a closer look

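Among 82 groups of 4 arrays, made of the tested member probe sets and the array measures in each sex, 3 held an array far from the other 3 of its sex, by the gap to its nearest neighbour as a share of the range of the group. Chance alone marks about 1 in 20 such groups. Male replicate 1 was high on the Itgb5 probe set 1417533_a_at, with a gap of 0.922 of the male range. Male replicate 3 was low on the Itgb8 probe set 1436223_at, with a gap of 0.865 of the male range. Female replicate 1 was low on the Itga6 probe set 1422444_at, with a gap of 0.882 of the female range.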

How the results depend on the processing

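The counts of members higher in females stayed between 8 and 12 probe sets (12 as reported) and between 5 and 8 genes (7 as reported) under every alternative run. The counts higher in males moved more. Against 10 probe sets and 6 genes as reported, they were 5 and 2 when only probe sets in the upper quartile of brightness were tested, where fewer probe sets enter, and 4 and 2 with the 18S reading as a covariate. Genes higher in males numbered 3 with no filter on dim probe sets and 4 under quantile normalization. Neither setting kept the calls of Itga1 and Itgb8. Leaving out single arrays gave 5 to 8 probe sets and 2 to 5 genes higher in males, with 3 genes without any 1 of male replicates 1, 2 and 4 and female replicate 3, and 2 without female replicate 1. The cause of these moves was not tested. On the probe set reported for it, no called gene changed direction under any alternative. Lamc1 turned when male replicates 1 and 3 were left out, since its brightest probe set was then 1423885_at (-0.93, limma adjusted p = 0.00333) in place of 1423886_at (1.12, limma adjusted p = 0.0178). Genes outside the naming pattern and higher in females numbered 2 under quantile normalization and 0 with the 18S covariate. With the replicate number as a block, 8 probe sets and 5 genes were higher in males and 12 and 7 in females, and the calls of Itgb8 (limma adjusted p = 0.0727) and of the Itga6 probe set 1422444_at were not kept. After the mean of each sex was removed, the correlations of same-numbered arrays were -0.13, -0.08, 0.04 and -0.03. These values show no strong pairing by number. They are taken over all tested probe sets, so they cannot exclude a weak pairing or one that touches few genes. Of the 32 member probe sets below the filter, 2 were called when no filter was used, 1426920_x_at of Itgb1 (limma adjusted p = 0.0259) and 1451241_at of Lamb1. Dim probe sets limit what can be read of Itga5, Itga7, Itgae, Itgb2, Itgb4, Itgb6, Itgb7, Lamb3 and Lamc3.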
